A study of Arabidopsis thaliana with 4 samples.

Results

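Messenger RNAs of 5 Arabidopsis thaliana genes that are typical of the dry seed, yet belong to neither the storage protein, the oleosin nor the late embryogenesis abundant (LEA) families, were followed in dark-grown seedlings. The genes are AT3G54940, AT1G65090, AT1G54870, AT1G47980 and AT1G27461, taken by their locus codes from the 13286 genes that had a probe set annotated to that gene alone. They had been picked because earlier results of these same arrays were known, so their levels are described here and no test is applied to them. The study compared the wild type, ecotype Columbia, with the phyA phyB double mutant, which carries the alleles phyA-211 and phyB-9 in Columbia and lacks phytochromes A and B, the main far-red and red light receptors. Both groups had the same treatment: sowing on 0.8% agar, 5 days of cold at 6 °C, a germination pulse of white light lasting 1 h at 22 °C, then 3 days of darkness at 22 °C before the seedlings were collected. Each genotype had 2 Affymetrix ATH1 arrays, which report 1 intensity per probe set, a group of short oligonucleotides directed at the same transcript. The labels do not say whether replicates came from separate cultures, so the spread between arrays may be technical.

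As a seed matures it fills with reserves, dries and becomes dormant, and its cells store messenger RNAs that are degraded once germination is under way. Beside storage proteins, oleosins and LEA proteins, such seeds hold enzymes that later digest the reserves, proteins that coat the oil droplets, and proteins tied to survival of water loss. In wild-type seeds, phytochromes perceive the light that promotes germination. A dark-grown seedling of this age has normally left the seed programme and is elongating its hypocotyl.

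Summed intensity ranged from 76027250 to 77974921 over the 4 arrays. Across the 13648 brighter probe sets, the Pearson correlation of log2 values was 0.95 for the wild-type pair and 0.917 for the mutant pair. Mutant array 1 was the least like the wild type, at 0.90 and 0.886, and mutant array 2 was closer, at 0.947 and 0.936. The levels of the 5 genes are therefore also given for each mutant array. No probe set used here was annotated to PHYA or PHYB alone, and the genotypes were not checked by these genes.

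Of the 5 genes, 4 were higher on both mutant arrays than on either wild-type array, and each of these 4 differed by at least 2-fold. AT1G47980 was high on mutant array 1 alone. Among all tested probe sets, 1.99% were at least 2-fold higher without overlap between the groups, and 20.0% were higher without overlap at any size. Since the genes were chosen on this contrast, nothing is read from the count of 4. Each of the 5 genes has 1 probe set, with the plain suffix that the array maker gives to sets designed against a single gene. The intensities do not separate splice forms, of which RefSeq lists 3 for AT1G65090, 2 each for AT3G54940 and AT1G54870, and 1 each for the remaining genes.

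AT3G54940 encodes a papain-type cysteine protease, a class of enzymes that includes those digesting storage proteins after germination. Its intensity was 4277 and 4413 on the wild-type arrays, 41348 on mutant array 1 and 18800 on mutant array 2. The groups did not overlap, and mutant array 2 lay 4.26 times above the higher wild-type array. On the log2 scale the wild-type mean was 12.11 ± 0.03 and the mutant mean 14.77 ± 0.80 (SD, n = 2 each), a difference of 2.66 (SE 0.57). For the 5 genes the SE comes from these SDs alone, without the variance sharing between probe sets that limma applies. This gene had the closest pair of wild-type values among the 5, and also the closest pair of mutant values, with mutant array 1 at 2.20 times mutant array 2.

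AT1G65090 encodes a protein of seed lipid droplets, the oil bodies in which the embryo keeps its triacylglycerol. Wild-type intensities were 796.1 and 598.5, and mutant intensities were 9721 and 3179. Both mutant values exceeded both wild-type values, by 3.99 times in the nearest pair. The log2 means were 9.57 ± 0.26 for wild-type and 12.46 ± 1.13 for mutant arrays (SD, n = 2 each), which differed by 2.89 (SE 0.82). The wild-type arrays differed more for this gene than for the remaining 4, at 1.33 times, and it is the member whose wild-type array 1 was above wild-type array 2.

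AT1G54870 encodes a short-chain dehydrogenase annotated by homology as a glucose and ribitol dehydrogenase. Its intensity was 4110 and 5242 in the wild type, against 73611 and 19202 in the mutant. The nearest values of the groups were 3.66 times apart. The log2 means were 12.20 ± 0.24 and 15.20 ± 1.37 (SD, n = 2 each), and the difference of 3.00 (SE 0.98) was the largest of the 5. On mutant array 1 the gene stood at 15.7 times the wild-type mean intensity, and on mutant array 2 at 4.11 times.

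AT1G47980 encodes a protein related to the desiccation-induced protein PCC13-62 of the resurrection plant Craterostigma plantagineum. Its intensity was 946.3 and 1113 on the wild-type arrays and 5467 on mutant array 1. Mutant array 2 gave 967, between the wild-type values, so the groups overlapped. The log2 means were 10.10 ± 0.15 and 11.23 ± 1.71 (SD, n = 2 each), a difference of 1.13 that was smaller than its SE of 1.21 and rests on mutant array 1. Without mutant array 1 the difference was -0.08, and without mutant array 2 it was 2.34.

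AT1G27461 encodes a protein with no role stated here. Intensities were 928.3 and 996.5 in the wild type, and 14868 and 3928 in the mutant. The groups were apart by 3.94 times at their nearest values. The log2 means were 10.01 ± 0.07 and 12.92 ± 1.34 (SD, n = 2 each), with a difference of 2.90 (SE 0.95). In the wild type its arrays differed by 1.07 times, against 3.78 times in the mutant.

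**Figure D1:**
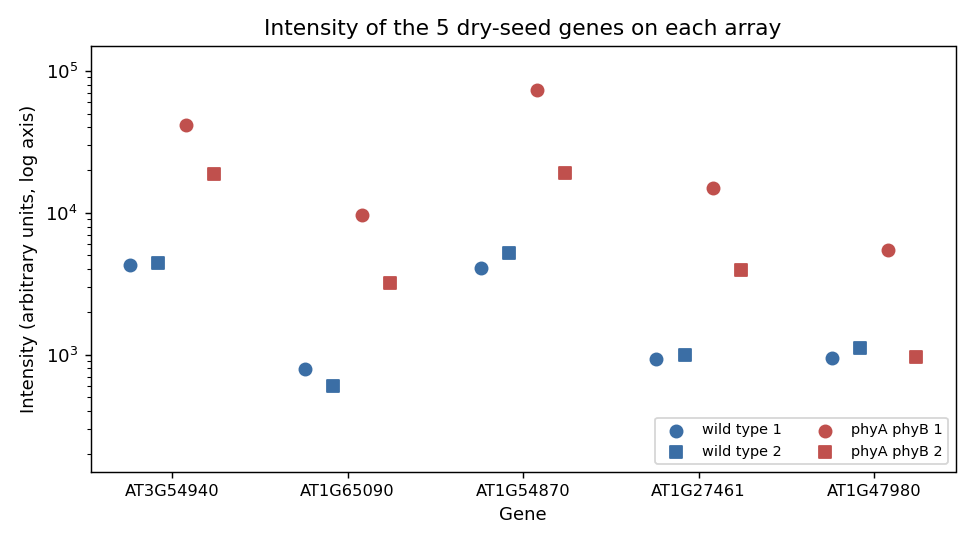
Intensity (arbitrary units, log axis) of each gene on the 4 arrays; blue marks the wild type and red the mutant, circles replicate 1 and squares replicate 2. For 4 genes both red points lie above both blue ones, while mutant array 2 of AT1G47980, at 967, falls between its wild-type values.

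The differences were larger on mutant array 1 than on its replicate. Against the wild-type mean, the median log2 difference over the 5 genes reached 3.69 on mutant array 1, against 2.03 on mutant array 2, compared with -0.0013 and 0.0314 over all tested probe sets. On mutant array 1 the differences ran from 2.34 for AT1G47980 to 3.97 for AT1G54870. On mutant array 2, 4 genes lay within a narrow span, from 1.95 for AT1G27461 to 2.10 for AT3G54940, and AT1G47980 was at -0.08. In order of size over the 13648 tested probe sets, these 4 took places 26 to 37 on mutant array 2 and 26 to 51 on mutant array 1. AT1G47980 took place 101 on mutant array 1 and 8591 on mutant array 2. The genes were chosen on this contrast, so nothing is read from these places or from the medians.

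All 5 genes had more signal on mutant array 1 than on its replicate. The gap was smallest for AT3G54940, at 1.13 on the log2 scale, and largest for AT1G47980, at 2.42. For AT1G65090, AT1G27461 and AT1G54870 it was 1.59, 1.90 and 1.93. Over all tested probe sets the median gap was -0.03, and the span from the 5th to the 95th percentile was -0.95 to 0.91. The SD between mutant arrays was at least 4.26 times the SD between wild-type arrays for each of the 5 genes.

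**Figure D2:**
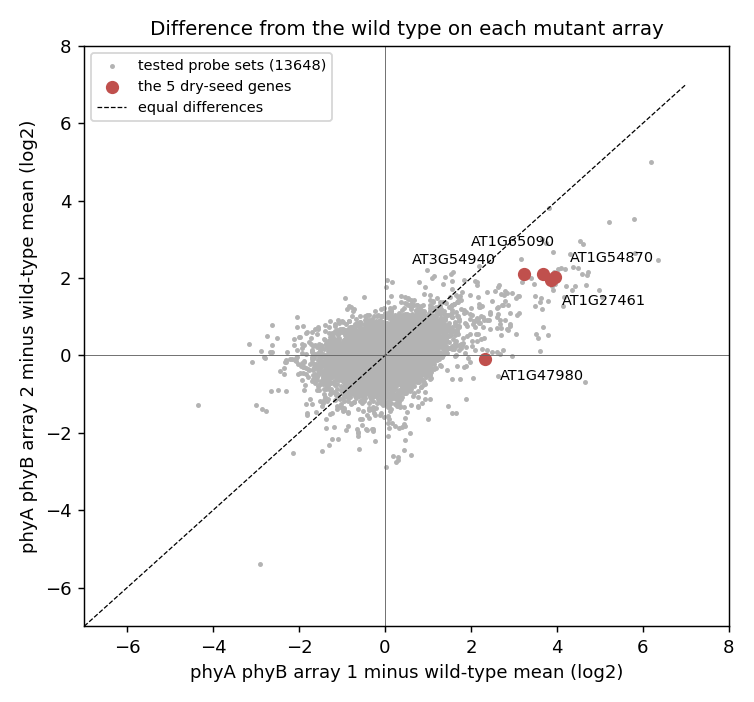
Log2 difference from the wild-type mean on mutant array 1 (horizontal) and mutant array 2 (vertical), with the 13648 tested probe sets in grey and the 5 genes in red. The red points lie below the dashed line of equal differences, 4 of them near 2 on the vertical axis and AT1G47980 at -0.08.

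The measured markers of seed tissue were higher on the mutant arrays, without overlap between the groups. Over all tested probe sets this held for 20.0%. The lists were chosen with earlier results of these data known, so nothing is read from this. Of 14 genes listed as markers of dry or imbibed seed, 2 were measured, the cupin gene AT1G03890 and the oleosin gene AT3G01570. Here and below, a measured gene is one with a probe set annotated to it alone. Other listed genes may still be on the array, since 8730 probe sets had no gene listed. Their summed intensity was 4404 and 5135 in the wild type, 65227.5 on mutant array 1 and 18515 on mutant array 2. AT1G03890 by itself had 531 and 627.6 in the wild type and 1095 and 1486.5 in the mutant, without the excess on mutant array 1. Neither passed in limma (adjusted p = 0.656 and 0.0901), and 0 listed values were at 0. The measured markers of etiolated seedlings, 3 of 8, summed to between 89949 and 90659 in the wild type, and to 124565.5 and 87152 in the mutant. PORB, for a protochlorophyllide reductase, made up most of that sum and differed by 0.71 and 0.02 on the mutant arrays. The cell wall genes EXLA2 and EXPA8 were below the wild-type mean on both, at -0.35 and -0.26 for EXLA2 and -0.26 and -0.19 for EXPA8. For EXLA2 both mutant arrays, at 2596 and 2766, lay between wild-type array 2, at 2542, and wild-type array 1, at 4363. Root markers, 2 of 8 measured, summed to 1860 and 1448 in the wild type and 901 and 1566 in the mutant. EXPA7, too dim to test, had 983.5 and 795.8 in the wild type and 93 and 926.6 in the mutant. EXPA18 had 876.8 and 651.8 in the wild type and 808 and 639.7 in the mutant. From the list of guard cell and shoot epidermis markers, 1 of 6 was measured, FMA, at 1042 and 701.5 against 883.3 and 394.3. The part of seed tissue in the levels of the 5 genes was not tested. In RNA from whole samples, more cells of a seed type and more transcript per cell cannot be told apart.

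The other genes of each family were compared from lists of locus codes, with p-values adjusted over all tested probe sets and SEs as moderated by limma. In that fit 0.0953% of probe sets passed in limma with Benjamini-Hochberg adjustment, and 7.24% had an unadjusted p under 0.05. For the papain-type proteases without AT3G54940, 17 of 30 listed genes were measured and 11 were bright enough to test. Of these, 0 passed in limma and 1 had an unadjusted p under 0.05. Their median difference was -0.13 beside 0.00 over all tested probe sets. The median was -0.48 for mutant array 1 and 0.14 for mutant array 2.

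Among these proteases the highest tested value was that of AT1G29090 at 0.58 and the lowest was that of CP1 at -0.69, with intensities of 26488 and 35423 in the wild type and 12154 and 29753 in the mutant. The dim AT3G49340 and AT1G06260 differed by 1.78 and -1.26 and were not tested. The difference of AT3G54940, 2.66, lay above this range. That gene was chosen on this contrast, so nothing is read from its place, and the gap between it and its relatives was not tested. The vacuolar processing enzymes, which cleave seed storage proteins and other vacuolar precursors, were measured for 4 of 4 genes. In limma 0 passed and 1 had an unadjusted p under 0.05. BETA-VPE, the seed-type enzyme, had intensities of 3853 and 4260 in the wild type and 15328 and 5730 in the mutant, a log2 difference of 1.20 (SE 0.40; adjusted p = 0.585, limma). ALPHA-VPE differed by 0.74 on mutant array 1 and 1.29 on mutant array 2. The signs were opposite for DELTA-VPE, with -0.14 and 0.41, and for GAMMA-VPE, with -0.74 and 0.02.

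Beside AT1G65090, 7 of 22 further lipid droplet proteins were measured and tested. In limma 0 passed and 2 had an unadjusted p under 0.05, with a median of 0.11. The highest was AT5G45690, an oil-body-associated protein gene, with intensities of 1365 and 1199 in the wild type and 27719 and 4326 in the mutant. Its difference of 3.03 (SE 0.66) did not pass (adjusted p = 0.221, limma). AT3G14360, an oil body lipase gene, differed by 1.05 (adjusted p = 0.444, limma), with like values on both mutant arrays, 1.13 and 0.97. The lowest were the lipid-droplet-associated genes AT1G67360 at -0.53 and AT2G47780 at -0.11, of a family that also acts outside the seed. AT1G67360 was at -0.88 and -0.18 on the mutant arrays, and AT2G47780 changed sign between them, at 0.15 and -0.37.

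Of the short-chain dehydrogenases near AT1G54870, 3 of 3 were tested. In limma 0 passed and 1 had an unadjusted p under 0.05. AT3G05260, the other glucose and ribitol dehydrogenase homolog, had intensities of 1422 and 1822 in the wild type and 31047 and 5807 in the mutant. The groups did not overlap, and the difference of 3.01 (SE 0.61) did not pass (adjusted p = 0.184, limma). Taken separately, the first mutant array gave 4.21 and the other 1.81. With either mutant array left out, the spread came from the wild-type pair alone, so no call is read from those fits. AT3G03980 differed by 0.16, from values of 0.21 and 0.12 on the mutant arrays. AT3G04000 went opposite ways, at -0.89 on mutant array 1 and 1.19 on mutant array 2. The relative of AT1G47980, AT3G62730, was too dim to test, with intensities of 511.5 and 269.5 in the wild type and 99.8 and 673.3 in the mutant.

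**Figure D3:**
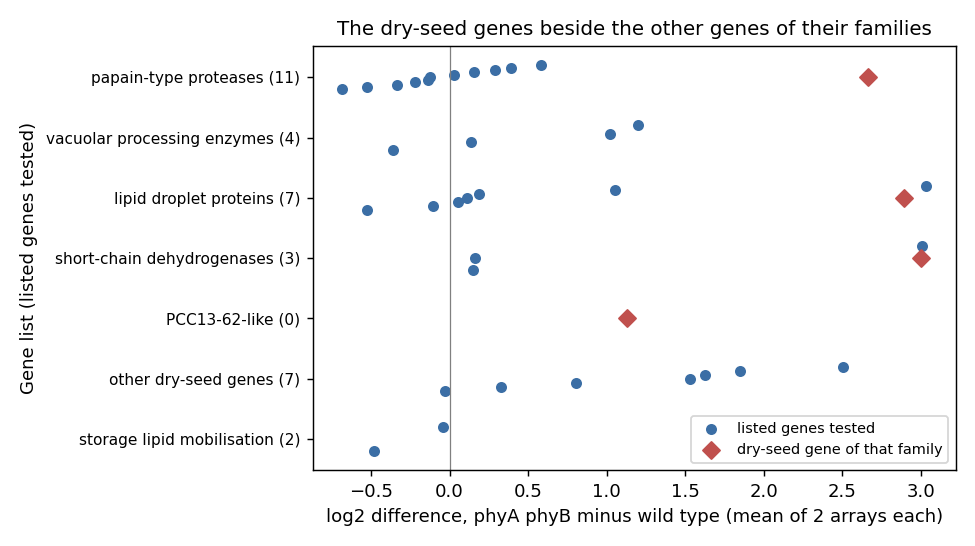
Log2 difference between the genotypes (mutant minus wild type, means of 2 arrays each) for the tested genes of each list in blue and for the dry-seed gene of that family in red. The blue points of the papain-type proteases lie between -0.69 and 0.58, while AT5G45690 and AT3G05260 lie beside the red points of their lists, near 3.

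A further list held 19 single genes of the dry seed, of which 7 were measured and tested. In limma 0 passed and 5 had an unadjusted p under 0.05, beside 7.24% of all tested probe sets. The median difference of the 7 was 1.53. That median was 1.99 when taken from mutant array 1, and 0.54 from mutant array 2. The highest were ATOEP16-2, for a channel-type protein of the plastid outer envelope, at 2.50 (SE 0.61; adjusted p = 0.338, limma), and AT5G01300, for a phosphatidylethanolamine-binding family protein, at 1.85 (SE 0.43; adjusted p = 0.269, limma). On the mutant arrays ATOEP16-2 was at 3.62 and 1.39, and AT5G01300 at 2.63 and 1.07. The lowest means were those of the heat shock protein gene AT1G54050 and of AT4G25580, at 0.33 and -0.03. Both changed sign between the mutant arrays, AT1G54050 with 1.00 and -0.34 and AT4G25580 with 0.41 and -0.48. Without mutant array 2, 4 of the 7 passed, where 3.09% of all tested probe sets did. That fit had a lone mutant array, and its spread came from the wild-type pair alone. The list was also chosen with earlier results of these data known, so nothing is read from the 5 under 0.05 or from the medians. Nothing is therefore read from the count of 4 or from its place against all tested probe sets. Storage lipid mobilisation, the breakdown of seed oil during early growth, was represented by 2 of 14 listed genes. ICL, for isocitrate lyase of the glyoxylate cycle, differed by -0.04, with intensities between 132927 and 142038 on the 4 arrays. SDP1, for the main lipase of seed oil, differed by -0.48, with 4742 and 6123 in the wild type and 2936 and 5039 in the mutant. In limma 0 of both passed, and 0 had an unadjusted p under 0.05.

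Likeness of pattern was measured as the Euclidean distance between log2 values centred on each gene's mean over the 4 arrays. The search covered 7299 other bright probe sets, each annotated to 1 gene. With 4 arrays and a contrast that chose the members, this is a description. AT1G54870 and AT1G27461 were the closest pair of the 5, at a distance of 0.20. AT1G47980 was the farthest from the rest, at 1.79 to 1.90. The gene nearest to both AT1G54870 and AT1G27461 was the oleosin gene AT3G01570, at 0.10 from each, with intensities of 3873 and 4507 in the wild type and 64133 and 17029 in the mutant.

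The gene nearest to AT3G54940 and to AT1G65090 was LEA (AT2G21490), a dehydrin gene, at 0.28 and 0.25. Its intensities were 2478 and 2059 in the wild type and 24333 and 9252 in the mutant. After these came AT3G53040 (0.47) and AT4G18650 (0.53) for AT3G54940, AT3G01570 (0.48) and AT2G21820 (0.56) for AT1G65090, AT3G05260 (0.33) and the cupin gene AT2G28490 (0.38) for AT1G54870, and AT2G15010 (0.38) and AT3G05260 (0.41) for AT1G27461. AT1G47980 had other neighbours: AT5G05320 at 0.23, AT3G14880 at 0.26 and the LEA gene LEA4-5 at 0.37. These 3 differed from the wild-type mean by 1.89 to 2.61 on mutant array 1 and by -0.27 to 0.16 on mutant array 2. LEA4-5, for example, had 3374 and 4151 in the wild type, 14062 on mutant array 1 and 3089 on mutant array 2. Nearest to the mean of the 5 genes were AT2G15010 (0.25), LEA (0.41), AT3G58450 (0.42), AT2G21820 (0.44) and AT3G01570 (0.47).

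**Figure D4:**
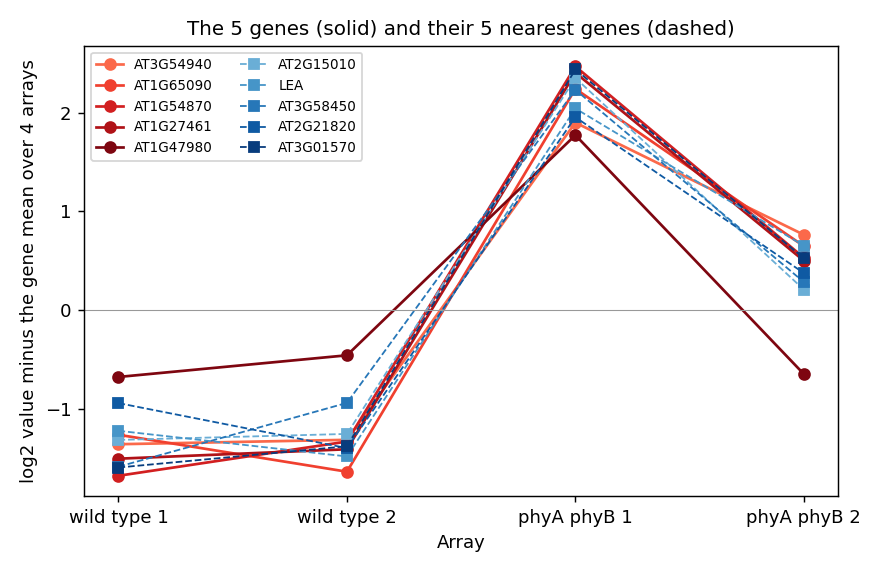
Log2 value minus the gene's mean over the 4 arrays for the 5 genes (red, solid) and the 5 genes nearest to their mean (blue, dashed); lines join the arrays of a gene and imply no order. The profiles peak on mutant array 1, and AT1G47980 alone falls to the level of its wild-type values on mutant array 2.

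The 3 protein-coding genes on each side of every member in RefSeq's order were examined as well, a choice made after the members' values were known. Of these 30 genes, 15 were measured and 11 tested. In limma 0 passed, the median difference was 0.06, and 2 had an unadjusted p under 0.05, beside 7.24% of all tested probe sets. The 2 were AT1G54860, next to AT1G54870, and AT1G47970, next to AT1G47980. AT1G54860 had intensities of 2040 and 1273 in the wild type and 21628 and 2727 in the mutant, a difference of 2.21 (SE 0.74; adjusted p = 0.585, limma) made up of 3.69 on mutant array 1 and 0.73 on mutant array 2. AT1G47970 differed by -0.74 (adjusted p = 0.681, limma), opposite in sign to its neighbour. On either side of AT3G54940 the measured genes AT3G54930 and AT3G54970 changed sign between the mutant arrays, with -1.38 and 0.30 for AT3G54930 and -0.35 and 0.54 for AT3G54970.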

How the data were processed

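The deposited values were 1 positive linear intensity per probe set and array, for 22746 probe sets on 4 arrays. Which software and scaling target the authors used, and any detection calls, is not given in the sources used here. Trimmed means (2% at each end) differed by 0.0946% between arrays, so the authors' scaling was kept. Intensities were transformed as log2(intensity + 70.1), the 10th percentile of all values, which understates changes of dim probe sets. The brightest 60% by mean log2 value, 13648 probe sets, entered the test in limma 3.58.1 under R 4.3.3 (lmFit, eBayes with intensity trend, Benjamini-Hochberg adjustment at 0.05). The number of arrays limits the precision, and p-values reflect no more than the spread among these arrays.

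Names were taken from the platform's annotation and updated through RefSeq's TAIR10.1 table. Of the probe sets, 13513 had 1 gene, 503 several and 8730 were not listed. RefSeq matched 13436. Only probe sets with 1 gene were named, and no coordinates are given because no build was stated for the files. Members and lists were chosen with earlier results of these data known. A listed gene was represented by its brightest probe set, and members were left out of the lists. From each list, genes past the threshold and the 2 highest and 2 lowest measured differences were named, together with the 3 genes nearest to each member and the 5 nearest to their mean. Replicate 1 of the wild type carries no number in its title and was numbered in accession order. Alternatives covered normalization, pseudocount, filter, variance model, threshold and each array left out. Plots used matplotlib 3.10.9.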

Additional observations from a re-analysis of the deposited data

How the results depend on the processing

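The median difference of the 5 genes, 2.89, was 2.99 without a pseudocount, 2.60 with one at the 25th percentile, and 2.87, 2.83 and 2.85 under quantile, median and cyclic loess normalization. Leaving out 1 array at a time gave 2.03 to 3.69. The count of 4 genes at least 2-fold higher without overlap was 4 or 5 under the normalizations, pseudocounts, filters and left-out arrays, alternatives added for this count after seeing the data. With arrays left out, the background ran from 1.91% to 4.33%. AT1G47980 ran from -0.0803 to 2.34 with arrays left out, and the other members kept their direction. The count of 13 probe sets past the threshold (limma) was 3 without a filter, where more were tested, 1 when eBayes used no trend, 31 when the adjusted p could reach 0.10, and 6 to 422 with single arrays left out, where the spread of the lone array was taken from the other genotype. With each array left out, calls ran from 0 to 2 for papain-type proteases, 0 to 1 for vacuolar processing enzymes, lipid droplet proteins and short-chain dehydrogenases, and 0 to 4 for dry-seed genes, with the highest counts without mutant array 2 (and, for the dehydrogenases, also without mutant array 1). The cause was not tested. Over 30 other named genes, none called at first, 22 calls were gained under alternatives and 361 values stayed on their side. Of the 5 genes nearest to the members' mean, 4 or 5 were kept under the normalizations, pseudocounts and brightest 40%. Without a filter 2 were kept, and with arrays left out 1 to 4. The alternatives for these nearest genes were likewise added after seeing the data. No paired analysis was possible because only replicate number 2 occurs in the labels of both genotypes. Detection calls were not used here, and the reliability of dim probe sets is unknown.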
